A study of Mus musculus with 24 samples.

Results

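The heat shock proteins and DNAJ co-chaperones of the mouse heart were compared after doxorubicin, hesperitin or both. They comprised the genes whose symbol starts with Hspa, Hspb, Hspd, Hspe, Hsph, Hsp90 or Dnaj. The endoplasmic reticulum chaperones Hspa5, Hsp90b1, Dnajb9, Dnajb11 and Dnajc3 were left out. The deposited gene tables held 59 such genes among 10709: 58 of 10393 at 16 h, 48 of 7723 at 72 h and 47 in both. By family they were 2 HSP90 genes, 13 of the HSP70 and HSP110 families, 6 small heat shock proteins, 2 chaperonin genes, 4 DNAJA, 7 DNAJB and 23 DNAJC genes and 1 processed copy, Hspd1-ps3. The prefix Hspb also took in Hspbp1, which encodes an HSP70 nucleotide exchange factor and not a small heat shock protein. Hspa1a, Hspa1b, Hspa1l, Hspa2, Hspb3, Hspbp1, Dnajb1, Dnajc9, Dnajc12, Dnajc17 and Dnajc24 were listed at 16 h alone. The authors' filter on genes is not given in the sources used here, so a gene missing from one says nothing about its change at that time.

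All animals were wild type (WT), and whole heart was sampled. Hearts taken at 16 h came from 4 groups: vehicle (V), doxorubicin at a dose of 25 mg/kg (DOX), a daily dose of 10 mg/kg hesperitin (H), and both drugs together (DOXH). Hearts taken at 72 h are reported for vehicle and doxorubicin, so 6 groups of 3 libraries enter here. Doxorubicin is an anthracycline chemotherapy drug known for its toxicity to heart muscle, and hesperitin (also spelled hesperetin) is a citrus flavanone. Strain, sex, age and vehicle are not stated in the labels, nor is the number of animals behind a library, and the spread behind each p-value is therefore that of the libraries, part of which may be technical.

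HSP70 proteins bind exposed hydrophobic stretches of unfolded proteins in cycles of ATP hydrolysis, and J-domain proteins of the DNAJA, DNAJB and DNAJC classes deliver clients and start that hydrolysis. HSP110 proteins, Hspbp1 and the BAG proteins release the nucleotide, HSP90 takes over part of the clients, and small heat shock proteins hold unfolding proteins without ATP. Heat shock factor Hsf1 drives the inducible genes of these families through repeated GAA elements in their promoters, and in muscle small heat shock proteins bind the sarcomere and its Z-disc.

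The results turned on the small heat shock proteins Hspb7 and Hspb1, whose response to doxorubicin differed most between the 2 times, and on the inducible pair Hspa1a and Hspa1b, whose reads are hard to tell apart. The 250 bases before the start of each gene are given 5′ to 3′ on the gene's strand (RefSeq, GRCm38). Capitals mark the palindromic pairs of heat shock elements GAANNTTC and TTCNNGAA, each the same on both strands. The window of Hspb1 (chr5:135887669-135887918, plus strand) holds 2 such pairs, at 117 to 110 and 97 to 90 bases before the start. That of Hspb7 (chr4:141420529-141420778, plus strand) holds 0. Those of Hspa1a (chr17:34972157-34972406, minus strand) and Hspa1b (chr17:34959239-34959488, minus strand) hold 1 each, at 104 to 97 bases before the start, and are identical at 247 of 250 bases.
Hspb1: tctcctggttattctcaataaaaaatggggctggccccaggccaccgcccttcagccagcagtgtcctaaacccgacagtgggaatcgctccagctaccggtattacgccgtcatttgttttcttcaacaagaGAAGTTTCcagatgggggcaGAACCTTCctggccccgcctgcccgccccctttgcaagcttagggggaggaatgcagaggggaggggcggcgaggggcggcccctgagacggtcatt
Hspb7: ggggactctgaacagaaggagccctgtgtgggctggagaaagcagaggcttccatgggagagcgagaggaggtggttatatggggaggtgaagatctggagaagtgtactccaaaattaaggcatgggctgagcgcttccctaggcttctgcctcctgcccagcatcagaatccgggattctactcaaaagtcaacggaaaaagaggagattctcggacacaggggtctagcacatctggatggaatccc
Hspa1a: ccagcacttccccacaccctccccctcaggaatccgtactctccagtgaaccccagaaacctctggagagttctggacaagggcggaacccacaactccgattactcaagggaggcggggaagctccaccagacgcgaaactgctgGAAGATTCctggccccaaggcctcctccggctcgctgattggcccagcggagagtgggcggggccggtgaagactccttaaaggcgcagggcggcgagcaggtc
Hspa1b: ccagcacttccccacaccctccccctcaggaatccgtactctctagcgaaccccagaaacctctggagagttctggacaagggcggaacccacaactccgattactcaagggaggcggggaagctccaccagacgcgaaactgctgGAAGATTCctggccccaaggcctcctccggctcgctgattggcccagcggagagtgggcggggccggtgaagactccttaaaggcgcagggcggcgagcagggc

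Windows were found for 46 members, and 14 of them (30.4%) held at least 1 such pair, against 3932 of 27025 genes (14.5%) over the genome. The 14 members were Dnaja1, Dnaja4, Dnajb4, Dnajb6, Dnajc10, Dnajc27, Hspa1a, Hspa1b, Hspb1, Hspb3, Hspb6, Hspd1, Hspe1 and Hsph1. They are not 14 separate promoters. The Hspd1 window with pairs (chr1:55087933-55088182) overlaps that of Hspe1 (chr1:55087898-55088147), and those of Hspa1a and Hspa1b are near copies. A match describes these letters in this window and does not show a bound site. In DOX against V at 16 h, 4 of the 14 were called lower and 1 higher (edgeR adjusted p under 0.05), with a median log2 change of -0.31. Of the 32 members without a pair, 13 were called lower and 5 higher, with a median of -0.27. Over all genes, 16.6% were called lower and 15.6% higher in this comparison. Whether a pair bears on the change was not tested.

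Library totals at 16 h ran from 9255651 to 11074450 counts outside the H group and from 17664060 to 19869050 within it; at 72 h they ran from 16607805 to 20587578. Levels are given as CPM (counts scaled to a common library size), scaled with TMM factors within each table, so every change is relative to the typical gene. These factors were 0.924 to 0.996 in V and 1.07 to 1.15 in DOX at 16 h, and 0.851 to 0.891 in V and 1.14 to 1.18 in DOX at 72 h. Scaling to total counts alone, chosen after seeing the data, therefore raised the median log2 change of all genes by 0.19 at 16 h and by 0.42 at 72 h. The members held 0.803% to 0.832% of all counts in V at 16 h and 0.663% to 0.724% in DOX, but 0.570% to 0.618% in V at 72 h and 0.667% to 0.791% in DOX.

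Heart muscle markers were present in every library. All 12 cardiomyocyte markers were lower in DOX at 16 h, with a summed level of 63753 to 72342 CPM in V, 63625 to 72354 in H, 37460 to 40048 in DOX and 45083 to 67926 in DOXH. At 72 h 10 of the 12 were lower, with 54654 to 61872 CPM in V and 22975 to 27700 in DOX. No lymphocyte marker was listed. Summed neutrophil markers were 21.9 to 67.9 CPM in V and 132 to 241 CPM in DOX at 16 h (0 of 5 called), and 0.957 to 1.98 CPM in V and 26.4 to 133 CPM in DOX at 72 h (3 of 3 higher). Erythroid markers fell at 72 h in 5 of 5, from 1436 to 3523 CPM in V down to 20.6 to 33.0 CPM in DOX. Endothelial markers at 72 h (904 to 1005 CPM in V, 1181 to 1762 CPM in DOX) and macrophage and monocyte markers (242 to 319 and 385 to 485 CPM) each had 5 of 8 higher and 1 lower. In whole heart, fewer cells of a type and less RNA per cell cannot be told apart, and the part of the marker change in any result below was not tested. The DOXH libraries lay apart from one another: for Hspb2, Hspbp1, Hspa4 and Hspa12a, replicate 2 lay near DOX and replicate 3 near V. For Hspb7 replicate 2 also lay near DOX, while replicate 3 (1321 CPM) lay between DOX (581 to 631 CPM) and V (1712 to 1773 CPM). In H, replicate 1 lay above replicates 2 and 3 for several inducible chaperones. That library also had 147 CPM of neutrophil markers, against 8.35 and 8.94 CPM in the other H libraries, and the lowest cardiomyocyte sum of the 3 (63625 CPM). Results that rest on these libraries are given with and without them.

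In the vehicle heart the small heat shock proteins led the families. Per kilobase of the longest transcript, Hspb7 had the highest level of all members at 16 h, at 626 CPM per kb. It was followed by Hspa8 (447), Hsp90ab1 (367), Hspb6 (293), Hspa9 (226), Hspb8 (225) and Hspd1 (149), each in CPM per kb. The inducible Hspa1a and Hspa1b stood near the bottom, at 2.73 and 2.40 CPM per kb, and Hspa2 at 1.71. At 72 h Hspb7 (507 CPM per kb), Hspa8 (350) and Hsp90ab1 (283) again led the V libraries. Hspb7 encodes a small heat shock protein found mainly in heart and skeletal muscle, Hspa8 the constitutive HSP70 of the cytosol and Hsp90ab1 the constitutive HSP90.

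The first comparison asks what doxorubicin did to these chaperones within 16 h. Most members that changed fell, among them 5 of the 6 small heat shock proteins. Of 58 members, 23 were lower and 7 higher in DOX than in V (edgeR quasi-likelihood test, Benjamini-Hochberg adjusted p under 0.05). That is 51.7% of the members, beside 32.3% of all genes called in this comparison, with 15.6% of all genes higher and 16.6% lower. The median log2 change was -0.25 over the members and 0.02 over all genes. With total-count scaling 12 members were lower and 13 higher, beside 40.9% of all genes called (32.7% higher and 8.22% lower), so the split between falls and rises depends on the scaling.

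Of the 6 small heat shock proteins, 5 fell. Hspb7 read 1773, 1712 and 1715 CPM in V and 631, 581 and 629 CPM in DOX. The 3 DOX libraries were far below the V libraries, a 2.83-fold lower level (log2 change -1.499 ± 0.21 SE, edgeR adjusted p = 0.00244). Hspb1, which encodes the actin-binding HSP25, read 106, 111 and 111 CPM in V and 71.7, 56.4 and 49.8 CPM in DOX (-0.88 ± 0.22, adjusted p = 0.0125). Hspb2, whose product pairs with that of Hspb3 in muscle, read 37.6, 36.4 and 38.3 CPM in V and 22.0, 22.7 and 19.7 CPM in DOX (-0.80 ± 0.19, adjusted p = 0.0104). Neither gene overlapped between the groups.

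Hspb8, which works with Bag3 in the removal of damaged filament proteins, fell by 0.37 ± 0.10 (log2; adjusted p = 0.0191), as did Hspb6 (HSP20) by 0.32 ± 0.08 (adjusted p = 0.0146). Both calls were lost with total-count scaling, at log2 changes of -0.17 and -0.12. Hspb3, at 5.59 to 6.89 CPM in V and 4.83 to 6.90 CPM in DOX, did not pass (-0.10 ± 0.16, adjusted p = 0.642). Summed over the family, the level was 2819 to 2915 CPM in V and 1449 to 1511 CPM in DOX.

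Of the HSP70 and HSP110 genes, 4 of 13 fell and 1 rose. Hspa8 read 1459, 1347 and 1429 CPM in V and 1012, 1071 and 999 CPM in DOX (-0.46 ± 0.12, adjusted p = 0.0134). The groups did not overlap, but with total-count scaling the change was -0.26 and did not pass (adjusted p = 0.129). Hspa4, an HSP110 that exchanges nucleotide on HSP70, read 161, 153 and 162 CPM in V and 81.8, 88.9 and 104 CPM in DOX (-0.79 ± 0.18, adjusted p = 0.00925). Hspa12b, a distant relative best known from endothelium, fell by 0.57 ± 0.11 (adjusted p = 0.00415). Hspa9, the mitochondrial HSP70, fell by 0.22 ± 0.06 (adjusted p = 0.0186), close to the threshold: leaving out DOX replicate 1, DOX replicate 2, V replicate 1 or V replicate 3 ended that call (adjusted p from 0.0542 to 0.0741), as did total-count scaling (adjusted p = 0.784).

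Hspa14, a ribosome-associated HSP70, was the 1 member of this family that rose: it read 10.0, 11.5 and 12 CPM in V and 20.4, 20.1 and 15.9 CPM in DOX (0.75 ± 0.15, adjusted p = 0.00479). The inducible genes did not pass. Hspa1a read 8.2, 7.98 and 8.17 CPM in V and 3.10, 4.21 and 5.26 CPM in DOX (-0.95 ± 0.41, adjusted p = 0.0956), and Hspa1b 7.62, 6.53 and 6.07 CPM in V and 4.74, 3.59 and 6.08 CPM in DOX (-0.49 ± 0.30, adjusted p = 0.227). For Hspa1a every DOX library was below every V library, while the Hspa1b groups touched. Hsph1 (HSP105) differed by -0.36 ± 0.15 (adjusted p = 0.0798). Hspa12a ranged from 33.1 to 36.3 CPM in V and from 11.9 to 21.4 CPM in DOX, and from 9.75 to 35.3 CPM in DOXH; the DOX libraries lay apart from V, but the difference did not pass (-0.998 ± 0.37, adjusted p = 0.0573).

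Among the partners of HSP70, Hspbp1 gave the steepest fall of any member: 10.8, 12.7 and 14.0 CPM in V against 4.19, 3.94 and 4.76 CPM in DOX (-1.54 ± 0.34, adjusted p = 0.00802). The HSP90 genes did not pass: Hsp90aa1, the inducible form, differed by -0.09 ± 0.16 (adjusted p = 0.696) and Hsp90ab1 by -0.04 ± 0.10 (adjusted p = 0.753). Of the mitochondrial chaperonin, Hspe1 (HSP10) fell by 0.51 ± 0.10 (adjusted p = 0.00415), while Hspd1 (HSP60) differed by -0.11 ± 0.07 (adjusted p = 0.252). Hspe1 ranged from 67.4 to 70.8 CPM in V and from 46.5 to 50.4 CPM in DOX.

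Of the DNAJA genes, Dnaja2 (-0.39 ± 0.07, adjusted p = 0.00438) and Dnaja3 (-0.34 ± 0.08, adjusted p = 0.0102) fell, and neither call held with total-count scaling (-0.20 and -0.14). Dnaja2 serves the cytosolic HSP70 and Dnaja3 the mitochondrial one. Dnaja1 (-0.23 ± 0.14, adjusted p = 0.228) and Dnaja4 (0.07 ± 0.10, adjusted p = 0.647) did not pass.

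Among the 7 DNAJB genes Dnajb5 stood out. It read 84.9, 77.2 and 71.6 CPM in V and 29.9, 34.7 and 29.0 CPM in DOX, a 2.50-fold lower level (-1.32 ± 0.18, adjusted p = 0.00236). The highest DOX library was below the lowest V library. Dnajb4 fell by 0.40 ± 0.09 (adjusted p = 0.00839), which total-count scaling ended (-0.20, adjusted p = 0.169). Dnajb6, a suppressor of protein aggregation, was higher by 0.34 ± 0.12 (adjusted p = 0.0467), close to the threshold: 8 alternative settings ended that call, with adjusted p up to 0.151. Dnajb1, the inducible HSP40, was level at 12.7 to 13.9 CPM in V and 11.1 to 15.5 CPM in DOX (0.02 ± 0.14, adjusted p = 0.94).

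The DNAJC class, whose members are tied to particular organelles, went both ways: 8 of 23 fell and 5 rose. The falls included genes of the mitochondrial membranes. Dnajc15 and Dnajc19, relatives of the import motor subunit of the inner membrane, fell by 0.48 ± 0.08 (adjusted p = 0.00309) and 0.34 ± 0.09 (adjusted p = 0.0168). Dnajc11, which associates with the cristae organizing system, fell by 0.53 ± 0.11 (adjusted p = 0.0056). Dnajc12, Dnajc21, Dnajc28, Dnajc25 and Dnajc5 also fell, by 0.83, 0.73, 0.58, 0.42 and 0.22 on the log2 scale. Total-count scaling ended the calls of Dnajc19, Dnajc28, Dnajc25 and Dnajc5, at -0.14, -0.38, -0.22 and -0.03.

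The steepest rise was that of Dnajc9, a histone chaperone: 8.29, 9.61 and 8.69 CPM in V against 16.0, 17.3 and 16.8 CPM in DOX (0.91 ± 0.14, adjusted p = 0.00253). Dnajc1 and Dnajc18, both of the endoplasmic reticulum membrane, rose by 0.49 ± 0.09 (adjusted p = 0.00371) and 0.46 ± 0.10 (adjusted p = 0.00623). Dnajc13, of endosomes, and Dnajc14, of the endoplasmic reticulum membrane, rose by 0.33 and 0.30 (adjusted p = 0.0256 and adjusted p = 0.0385), and of 16 alternatives 5 ended the call of Dnajc13 and 6 that of Dnajc14. No DOX library overlapped V for these 5.

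**Figure D1:**
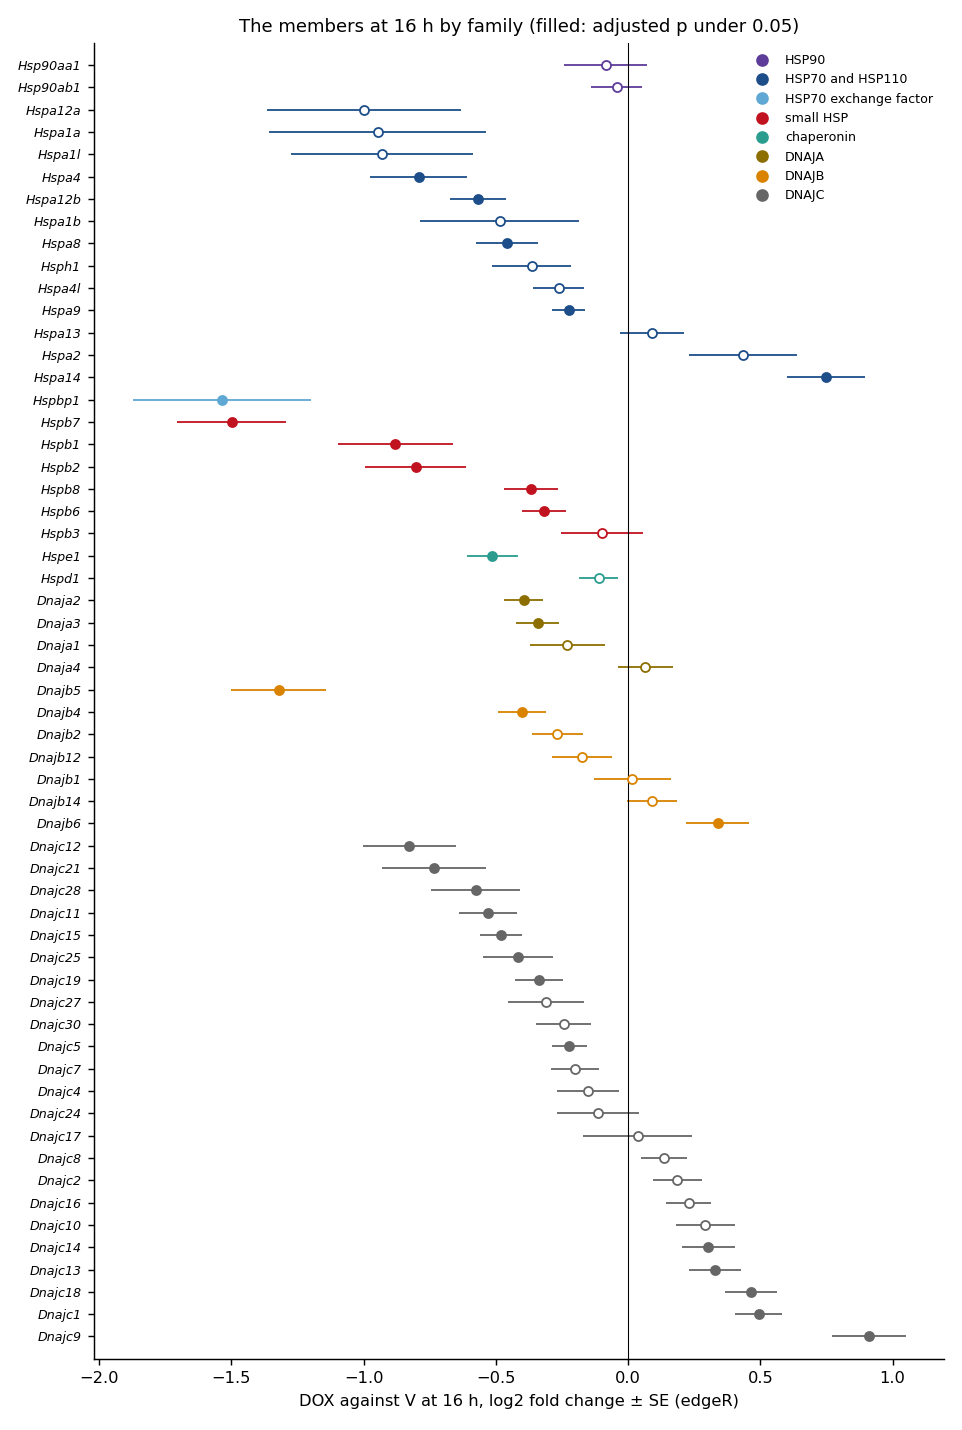
Log2 change of each of the 58 members in DOX against V at 16 h (points; bars are ± SE from edgeR, 3 libraries per group), grouped by family, with filled points for adjusted p under 0.05. Hspbp1, Hspb7 and Dnajb5 lie furthest to the left and Dnajc9 furthest to the right; scaling to total counts moves all points to the right by about 0.19.

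Genes that work with these chaperones were read from lists. HSP90 co-chaperones had 35% called and exchange factors and adaptors of HSP70 36.4%, close to the 32.3% of all genes. Of 20 HSP90 co-chaperones, 7 fell and 0 rose, with a median of -0.17. Fkbp4 (FKBP52) averaged 247 ± 8.52 CPM in V but 118 ± 12.8 CPM under DOX (± SD, n = 3; log2 change -1.07, adjusted p = 0.00279). Unc45b, the myosin chaperone of striated muscle, changed by -1.09 (adjusted p = 0.00676), Itgb1bp2 (melusin) by -0.64 and Ppp5c by -0.31. Of 11 nucleotide exchange factors and adaptors of HSP70, 4 fell: Hikeshi, which carries HSP70 into the nucleus (-0.85), St13 (-0.41), Bag2 (-0.45) and Bag3 (-0.61, adjusted p = 0.0234).

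Of the heat shock factors, Hsf4 rose from 2.61 ± 0.53 to 5.55 ± 0.48 CPM (1.09, adjusted p = 0.00671), and Hsf1, at 24.5 ± 2.02 and 23.2 ± 0.65 CPM, did not pass (-0.08 ± 0.11, adjusted p = 0.569). Among 9 heat shock targets and chaperones outside the symbol rule, Cacybp (-0.49), Cryab (-0.32) and Dedd2 (-0.54) fell and Ubb rose (0.61). Of 14 genes of the cytosolic chaperonin CCT and prefoldin, Pfdn6 and Cct6a fell and Pfdn2 rose. Of 8 mitochondrial proteostasis genes, Clpp, Afg3l2 and Pam16 fell, and of 5 endoplasmic reticulum chaperones left out by the rule, Hspa5 and Hsp90b1 fell. These lists had from 21.4% to 44.4% of their genes called, around the 32.3% of all genes.

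The second comparison concerned hesperitin alone. At 16 h, 0 of 58 members and 0% of all genes differed between H and V by the edgeR test, and DESeq2 also called 0 members. At an unadjusted p under 0.05 there were 7 members and 664 of 10393 genes. The lowest p-values belonged to inducible genes. Hspa1a read 8.2, 7.98 and 8.17 CPM in V and 6.40, 1.57 and 2.14 CPM in H (-1.26 ± 0.40, adjusted p = 0.644), and Hspa1b 7.62, 6.53 and 6.07 CPM in V and 4.36, 2.48 and 1.55 CPM in H (-1.27 ± 0.30, adjusted p = 0.556). Every H library was below every V library for both genes, with H replicate 1 nearest to V.

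Of the transcript windows of 50 bases, 60.3% in Hspa1a and 62.3% in Hspa1b occur in another gene's transcripts, mostly in each other's, so the split of reads between them is uncertain. Their sum was 14.2 to 15.8 CPM in V and 3.69 to 10.8 CPM in H, and its difference did not pass either (adjusted p = 0.556). Without H replicate 1, 5 members were lower in H than in V, beside 0.452% of all genes called: Hspa1a (-2.11, adjusted p = 0.00318), Hspa1b (-1.75, adjusted p = 0.0165), Dnaja1 (-0.70, adjusted p = 0.0332), Hsph1 (-0.66, adjusted p = 0.034) and Hsp90aa1 (-0.47, adjusted p = 0.0296). In the omitted library Hsp90aa1 read 187 CPM, against 111 and 119 CPM in the other H libraries and 156 to 166 CPM in V. Hspa8 read 1464 CPM there, against 1091 and 1029 CPM, and 1347 to 1459 CPM in V. Of the 6 small heat shock proteins, 0 differed between H and V by edgeR, with a median log2 change of 0.02. Single libraries spread around V. Hspb7 read 1981, 1514 and 1629 CPM in H, against 1712 to 1773 CPM in V (-0.02 ± 0.20, edgeR adjusted p = 0.997). Hspb1 read 122, 98.9 and 77.6 CPM in H, against 106 to 111 CPM in V.

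**Figure D2:**
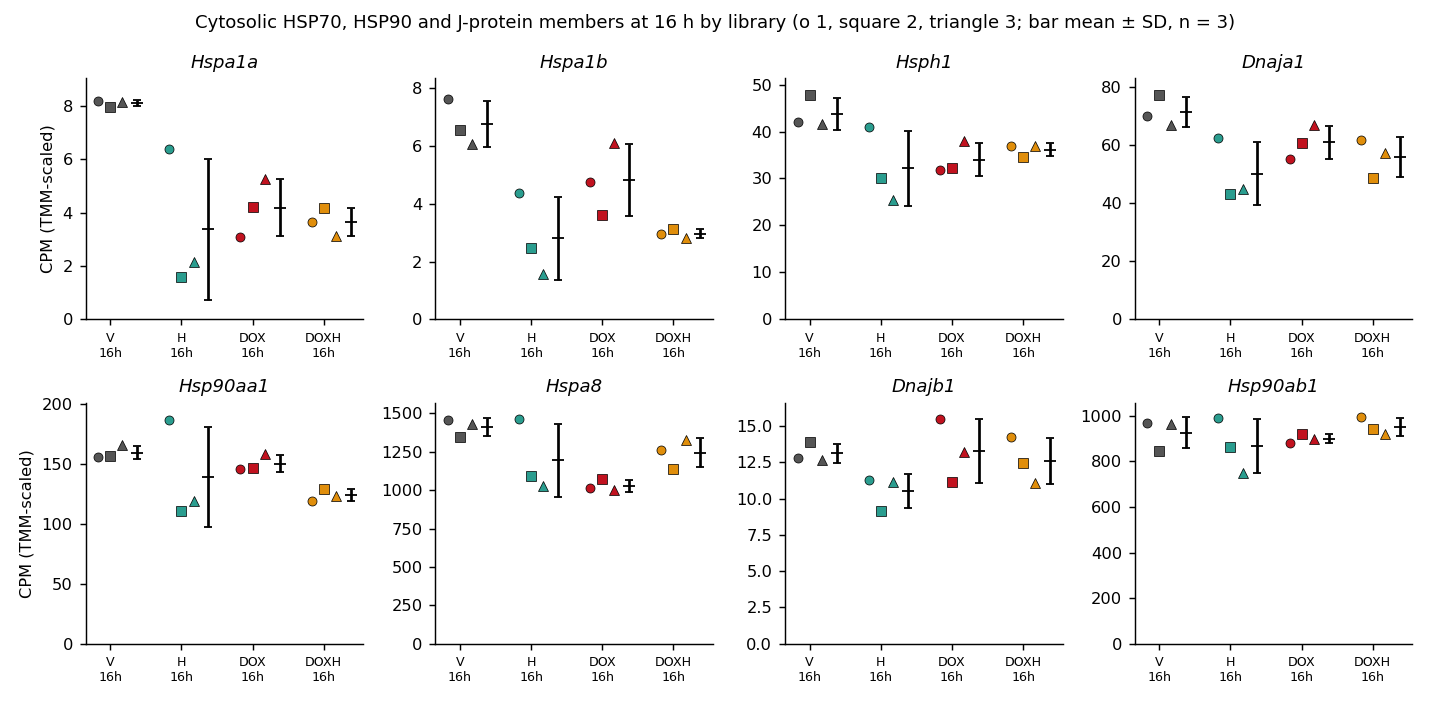
TMM-scaled CPM of 8 cytosolic HSP70, HSP90 and J-protein genes in each 16 h library (circle, square and triangle for replicates 1, 2 and 3; bars are mean ± SD, n = 3). H replicate 1 lies above the other H libraries for Hspa1a (6.40 against 1.57 and 2.14 CPM), Hsp90aa1 and Hspa8, and for Hspa1a all H, DOX and DOXH libraries lie below V.

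The third comparison asks whether hesperitin changed the response to doxorubicin. By edgeR, 0 of 58 members and 0% of all genes differed between DOXH and DOX, with 19 members and 1958 genes at an unadjusted p under 0.05. DESeq2 called 3 members of 58, all higher in DOXH: Hspa9 (0.22, adjusted p = 0.0117), Dnajc15 (0.31, adjusted p = 0.0223) and Dnaja2 (0.24, adjusted p = 0.0474). Over all genes it called 390 of the 7366 that it gave an adjusted p (5.29%). These shares are close but rest on unlike bases, since the members are counted out of all 58. Hspb7 read 765, 671 and 1321 CPM in DOXH against 631, 581 and 629 CPM in DOX (0.58 ± 0.20, edgeR adjusted p = 0.184). Replicate 3 was the highest and still lay below all V libraries (1712 to 1773 CPM). Hspbp1 was also highest in replicate 3, at 6.79, 3.43 and 12.7 CPM in DOXH, with replicate 2 below all DOX libraries and replicate 3 within V (0.82 ± 0.35, adjusted p = 0.238).

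Without DOXH replicate 2, 17 members differed from DOX, 14 higher and 3 lower, beside 15% of all genes (1554 of 10393). They included Hspb7 (0.77, adjusted p = 0.0226), Hspb2 (0.66), Hspb8 (0.37), Hspbp1 (1.17), Hspa4 (0.54) and Dnajb5 (0.67) on the higher side and Dnajc9 (-0.60), Hspa14 (-0.52) and Dnajc18 (-0.37) on the lower. Without DOXH replicate 1 or 3 the count was 0. The summed cardiomyocyte markers followed the same order, at 48614, 45083 and 67926 CPM in DOXH replicates 1, 2 and 3, and their part in these values was not tested. The comparisons of H, DOX and DOXH with V share the 3 V libraries, and DOXH against DOX shares the DOX libraries with DOX against V, so these values are not independent.

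Between DOXH and V, 0 members and 0% of all genes passed by edgeR (20 members and 1749 genes at an unadjusted p under 0.05), and DESeq2 called Hspb7 (-0.92) and Dnajb5 (-0.85) lower, beside 1.26% of all genes. Between DOXH and H, 0 members passed beside 0.154% of all genes (20 members and 2558 genes at an unadjusted p under 0.05), and DESeq2 called the same pair of genes lower, beside 6.91% of all genes. Without DOXH replicate 3, 10 of 58 members differed from V and 15 from H, close to the 16.1% and 22.1% of all genes called. Hspb7 was then lower than V by 1.27 on the log2 scale, with Hspbp1 at -1.28, Dnajb5 at -1.05, Hspb1 at -0.85 and Hspa4 at -0.71.

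The interaction, which is the doxorubicin change with hesperitin minus that without, gave 0 members and 0% of all genes by edgeR and 0 members by DESeq2 (9 members and 1228 genes at an unadjusted p under 0.05). Its smallest p belonged to Dnajc9 (-0.82 ± 0.19, adjusted p = 0.298), which read 11.6, 10.5 and 11.5 CPM in H and 12.6, 13.9 and 9.34 CPM in DOXH. Leaving out DOXH replicate 2 called Dnajc9 (-0.94) and Dnajb5 (0.77), and leaving out H replicate 1 called Hspa8 (0.69) and Hspa1a (1.91), beside 2.44% and 0.279% of all genes. With all libraries the interaction of Hspa8 was 0.52 and did not pass (edgeR adjusted p = 0.352). Hspa8, at 1262, 1141 and 1326 CPM in DOXH, lay above all DOX libraries (999 to 1071 CPM) and below all V libraries (1347 to 1459 CPM). The H libraries, at 1464, 1091 and 1029 CPM, spread around the DOXH values.

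The fourth comparison followed doxorubicin to 72 h. Of 48 members tested, 23 were lower and 4 higher in DOX than in V (edgeR adjusted p under 0.05). At 56.2% this was close to the 53.7% of all genes called in this comparison, of which 26.5% of genes were higher and 27.2% lower. The median log2 change was -0.23 over the members and 0.01 over all genes. With total-count scaling the split turned to 22 higher and 5 lower, beside 72.7% of all genes called (63.7% higher and 9.07% lower), so a fall at this time means a fall relative to the typical gene. Only Dnajc28, Dnaja3, Hspa12a, Hsph1 and Dnajb5 were lower by both scalings, and 13 of the 23 falls had the opposite sign with total counts.

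Of these 5, Dnajc28 read 52.0, 44.4 and 48.3 CPM in V and 23.9, 23.5 and 22.7 CPM in DOX (-1.05 ± 0.08, adjusted p = 3.47e-05). Dnaja3, whose loss in the mouse heart is known to cause dilated cardiomyopathy, read 118, 102 and 101 CPM in V and 54.6, 53.3 and 62.3 CPM in DOX (-0.91 ± 0.10, adjusted p = 9.58e-05). Hsph1 read 40.7, 25.9 and 30.9 CPM in V and 15.1, 15.4 and 18.3 CPM in DOX (-1.001 ± 0.16, adjusted p = 0.00126). In all 3 genes the DOX libraries lay together and below V. Hspa12a changed by -1.11 ± 0.16 (adjusted p = 0.000517) and Dnajb5 by -0.78 ± 0.11 (adjusted p = 0.000456). With total-count scaling the 5 changes were -0.63, -0.50, -0.59, -0.70 and -0.36 in the order Dnajc28, Dnaja3, Hsph1, Hspa12a and Dnajb5.

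The small heat shock proteins split at 72 h. Hspb1 rose, from 90.1, 85.4 and 74.2 CPM in V to 140, 99.6 and 152 CPM in DOX (0.65 ± 0.15, adjusted p = 0.00799). Hspb6 (-0.39, adjusted p = 0.0235) and Hspb8 (-0.36, adjusted p = 0.00878) were lower, and with total-count scaling they stood at 0.02 and 0.06. Hspb7, at 1444, 1412 and 1354 CPM in V and 1614, 1394 and 1642 CPM in DOX, did not pass (0.14 ± 0.10, adjusted p = 0.229). Its groups overlapped, and with total-count scaling it was higher (0.56, adjusted p = 0.000618). Hspb2 differed by -0.06 ± 0.08 (adjusted p = 0.575). The family's summed level was 2190 to 2327 CPM in V and 2033 to 2468 CPM in DOX. Of the 50-base windows of Hspb1, 51.6% occur also in the processed copy Hsp25-ps1, so its counts may hold reads of that copy.

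Dnaja3, which serves the mitochondrial HSP70, was lower by both scalings, as was Dnajc28 (both given above). Of the other members with mitochondrial products, Hspd1 (-0.40 ± 0.12, edgeR adjusted p = 0.018), Hspe1 (-0.37 ± 0.09, adjusted p = 0.00637), Dnajc11 (-0.46), Dnajc15 (-0.38) and Dnajc30 (-0.37) were lower at 72 h. None of these others passed with total-count scaling, where the lowest was Dnajc11 at -0.0438 and the highest Dnajc30 at 0.0447. Dnajc19 did not pass at 72 h (-0.12 ± 0.10, adjusted p = 0.341). The call of Hspd1 was lost without V replicate 1 (adjusted p = 0.0627). Hspd1-ps3, a processed copy that shares 60.7% of its windows with other genes, mostly Hspd1, was also lower (-0.49, adjusted p = 0.0167). Hspa9 read 314, 551 and 543 CPM in V and 313, 325 and 347 CPM in DOX. The V libraries disagreed, replicate 1 lying within DOX, and the difference did not pass (-0.52 ± 0.20, adjusted p = 0.064). Without V replicate 1 it was -0.74 (adjusted p = 0.000576).

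Of the cytosolic HSP70 system, Hspa4l (-0.57 ± 0.11, adjusted p = 0.00186), Hspa4 (-0.32), Dnaja2 (-0.22) and Dnaja4 (-0.34) were lower, whereas Hspa8 (-0.06 ± 0.15, adjusted p = 0.766) and the HSP90 genes Hsp90aa1 (0.20 ± 0.10, adjusted p = 0.131) and Hsp90ab1 (-0.06 ± 0.12, adjusted p = 0.694) did not pass. The call of Dnaja2 at 72 h was lost in 8 of 14 alternatives and changed sign in 1. Hspa8 spread from 847 to 1315 CPM in DOX, around 1067 to 1163 CPM in V. With total-count scaling Hspa8 (0.36), Hsp90aa1 (0.61) and Hsp90ab1 (0.35) were all higher. Dnajc1 (0.44), Dnajc10 (0.44), a disulfide reductase of the endoplasmic reticulum, and Dnajc8 (0.43), a splicing-associated protein, were higher by both scalings.

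Of the lists at 72 h, HSP90 co-chaperones gave 7 lower and 4 higher of 20 (55%), close to the 53.7% of all genes called. The other lists given here had 0% to 50% of their genes called. Fkbp4 changed by -1.81 (adjusted p = 2.91e-05), from 271 ± 26.2 to 77.3 ± 12.5 CPM, and Fkbp5 by 1.44 (adjusted p = 0.00341), from 27.7 ± 2.33 to 75.1 ± 26.1 CPM. Stip1 (-0.69) and Chordc1 (-0.63) were lower. Of 10 exchange factors and adaptors, St13, Hikeshi and Bag2 were lower and Bag5 higher (0.52), and Bag3 did not pass (-0.10, adjusted p = 0.437). None of 3 heat shock factor genes tested passed. Of 13 CCT and prefoldin genes 3 were higher and 0 lower. Of 8 heat shock targets and chaperones outside the symbol rule, Cacybp (-0.61), Serpinh1 (-0.64) and Trap1 (-0.24) were lower and Ubb higher (0.90, adjusted p = 0.000135), while Cryab did not pass (0.21, adjusted p = 0.107). Of 8 mitochondrial proteostasis genes 3 were lower and 1 higher, and of the 5 endoplasmic reticulum chaperones Dnajc3 was higher (0.70).

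The last comparison tested the difference itself, as the doxorubicin change at 72 h minus that at 16 h, each against the V libraries of its own time. In the fit of the 12 V and DOX libraries, 19 of 47 members differed, 10 with a change that was higher at 72 h and 9 with one that was lower. That is 40.4% of the members beside 35.6% of 7407 genes called (16.8% higher and 18.8% lower). Total-count scaling gave 17 higher and 6 lower, beside 39.5% of genes (30.4% higher and 9.13% lower). Hspb7 gave the strongest result (1.62 ± 0.10, edgeR adjusted p = 1.59e-06): a 2.83-fold lower level at 16 h against no called change at 72 h. Hspb1 (1.51 ± 0.22, adjusted p = 0.000474) had changed from lower to higher, and Hspb2 (0.73 ± 0.11, adjusted p = 0.000396) from lower to not past the threshold. Hspb6 (-0.09) and Hspb8 (-0.01) showed no such called difference (adjusted p = 0.654 and adjusted p = 0.961).

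The other genes with a higher change at 72 h were Dnajb5 (0.53), Dnajc21 (0.46), Hspa4 (0.45), Hspa12b (0.43), Dnajc7 (0.41), Dnajb12 (0.35) and Dnajc8 (0.28). Those with a lower one were Dnajc18 (-0.83 ± 0.11, adjusted p = 0.000195), Hspa14 (-0.75), Dnajc16 (-0.75), Dnajc13 (-0.74), Hsph1 (-0.66), Dnaja3 (-0.59), Dnajb14 (-0.56), Dnajc28 (-0.49) and Dnaja4 (-0.42). Dnajc18 read 29.1, 25.5 and 27.0 CPM in V and 37.8, 39.1 and 35.7 CPM in DOX at 16 h, but 23.5, 22.0 and 20.9 CPM in V and 16.9, 18.4 and 16.8 CPM in DOX at 72 h. With TMM scaling, Dnajc18 was thus above V in every DOX library at the first time and below V in every one at the second. Dnajc13 did the same, from 0.33 at 16 h to -0.39 at 72 h. With total-count scaling both were slightly above V at 72 h, at log2 changes of 0.0655 (Dnajc18) and 0.0241 (Dnajc13).

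The difference between times for Hspb7, Hspb1, Hspb2, Dnajc18, Dnajc16, Dnajc13, Hspa14, Dnaja3 and Dnajb14 passed in every alternative run, total-count scaling included. Of 21 alternatives, 13 ended the call of Dnajb12, which lay at the threshold (adjusted p = 0.0493). For Hsph1 9 did, among them leaving out V replicate 1 at 72 h (-0.45, adjusted p = 0.055), for Hspa12b 7 and for Dnajc8 6. Dnajb5 and Dnajc28 lost theirs in 3 each, Hspa4 in 2, and Dnaja4, Dnajc21 and Dnajc7 in 1 each. Of the 47 members tested at both times, 12 (25.5%) were lower at both, beside 933 of 7405 genes (12.6%). Only 1 member (Dnajc1, 2.13%) was higher at both, beside 479 genes (6.47%). From lower to higher went 1 member (Hspb1, 2.13%), beside 88 genes (1.19%). From higher to lower went 2 members (Dnajc13 and Dnajc18, 4.26%), beside 81 genes (1.09%). The 12 were Dnajb5, Dnaja2, Dnaja3, Hspa4, Hspb6, Hspb8, Hspe1, Dnajc11, Dnajc15, Dnajc21, Dnajc25 and Dnajc28. These calls rest on TMM scaling, and with total counts only Dnajb5 of the 12 was called lower at both times. Dnaja2, Hspa4, Hspb6, Hspb8, Hspe1, Dnajc15, Dnajc21 and Dnajc25 then had the opposite sign at 72 h, as did Dnajc13 and Dnajc18.

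**Figure D3:**
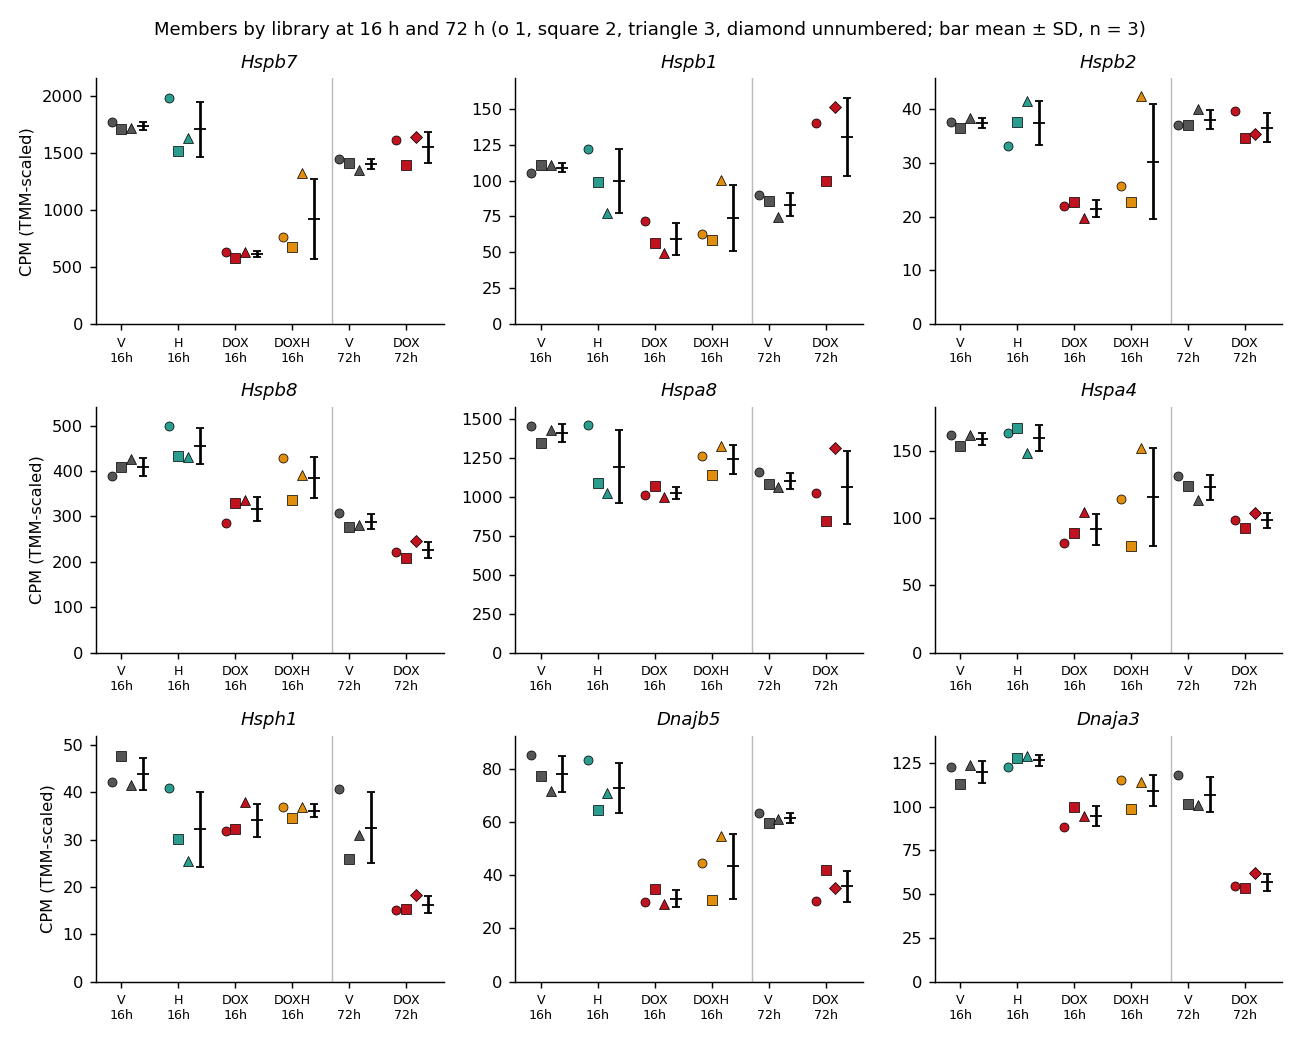
TMM-scaled CPM of 9 members in every library at 16 h and 72 h (circle, square and triangle for replicates 1, 2 and 3, diamond for the DOX library without a number; bars are mean ± SD, n = 3); levels are scaled within each time. Hspb7 lies at 581 to 631 CPM in DOX at 16 h and at 1394 to 1642 CPM in DOX at 72 h. Replicate 3 is the highest DOXH library for Hspb7, Hspb2 and Hspa4.

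**Figure D4:**
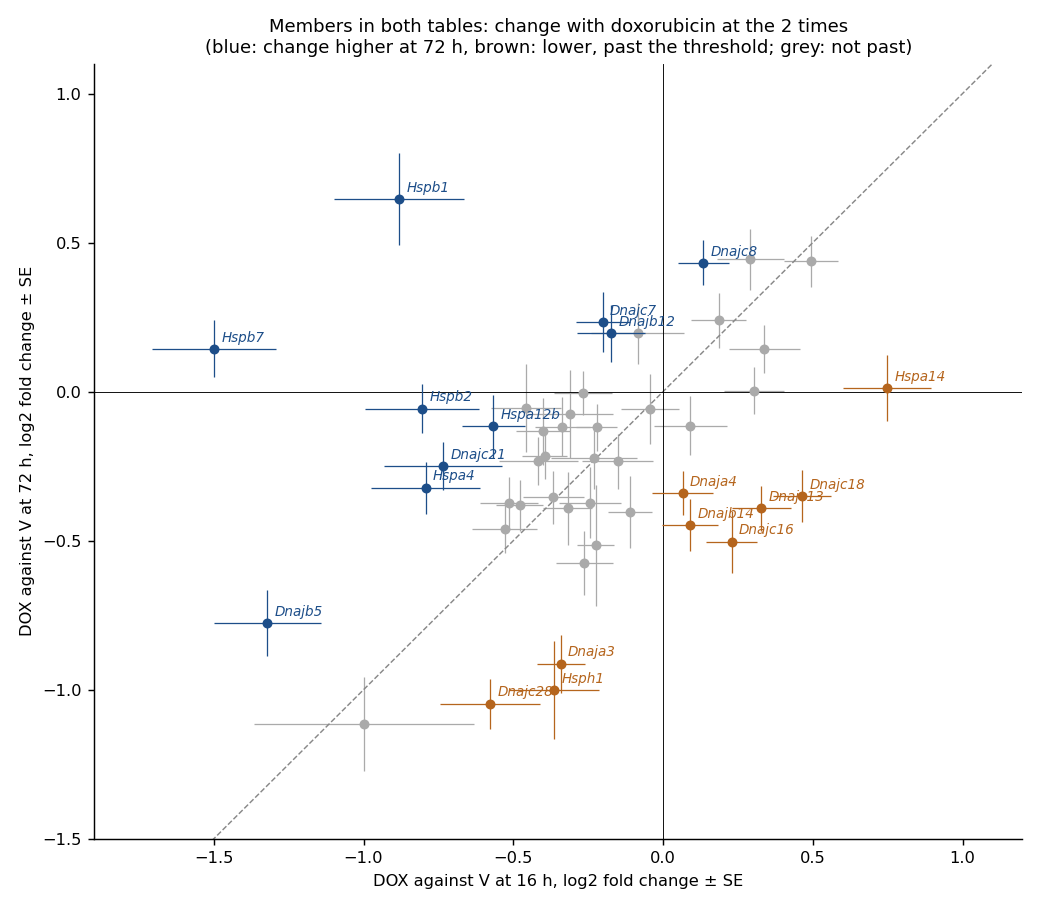
Log2 change in DOX against V at 16 h (horizontal) and 72 h (vertical) for the 47 members in both tables, with ± SE bars and the line of equal change; coloured points are those whose change differs between the times by edgeR. Hspb7, Hspb1 and Hspb2 lie to the upper left and Dnajc18, Dnajc13 and Hspa14 to the lower right; total-count scaling moves all points up by about 0.42 and right by about 0.19, so that 13 of the members lower at 72 h would lie above 0.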

How the data were processed

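Poly(A) mRNA of heart tissue was sequenced, per the labels' protocols. The authors deposited expected counts per gene (estimated read counts, not always whole), 1 table per time, made with RSEM on GRCm38 (mm10) per the submitters' processing notes, which also name DESeq2. No version, annotation, strand setting or gene filter is stated in those notes.

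The labels give 24 samples in 8 groups, and 18 libraries were used. The remaining 6 columns of the 72 h table have a code absent from the labels and were set aside. The third DOX column at 72 h has a number absent from the labels, so it counts as an unnumbered replicate. The batch label is the same throughout.

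Expected counts were rounded, scaled by TMM and filtered with filterByExpr, which removed 0 genes at 16 h and 20 at 72 h, leaving 7703. The test was edgeR 4.0.16 (R 4.3.3), robust quasi-likelihood, with a mean per group. The 16 h fit had 12 libraries and 8 residual degrees of freedom, the 72 h fit 6 and 4, and the fit of both times 12 and 8. P-values were adjusted over all genes of a fit, with a threshold of 0.05. SE is the absolute log2 change divided by the square root of F. The fits were tested on simulated data. No 2 libraries of a group agreed within sampling noise. Depth and 3 libraries per group limit calls of small changes. Replicate numbers were not used to pair samples.

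The members, lists and tests were chosen with earlier results of these data known. The naming rule allows up to 24 members past the threshold per comparison, 18 anchor chaperones whether or not they pass and up to 4 genes per list. Genes named beyond it were chosen after their values were seen. The list of other J-domain genes is not reported here. Promoters are from RefSeq. Counts of Hspa1a, Hspa1b, Hspa8 (51.4% of 50-base windows shared with other genes), Hsp90aa1 (58.5%), Hspb1 and Hspd1 (44.8%) are uncertain where reads were split. Tried as alternatives were DESeq2 1.42.0, limma 3.58.1 voom, the RLE and upper quartile scalings, filtering at a mean of 5 CPM or not at all, a replicate block, fits of only the groups compared, summing Hspa1a with Hspa1b, and omitting each library. A fit of all 18 libraries and total-count scaling were chosen after seeing the data.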

Additional observations from a re-analysis of the deposited data

Results flagged for a closer look

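The 19 results flagged are the members whose doxorubicin change differed between 72 h and 16 h by the test of that difference (edgeR adjusted p under 0.05 over 7407 genes), each given as the log2 change at 72 h minus that at 16 h. They are 40.4% of the 47 members tested, close to the 35.6% of all genes called in this comparison. Among small heat shock proteins the flagged members were Hspb7 (1.62), Hspb1 (1.51) and Hspb2 (0.73). In the HSP70 and HSP110 families they were Hspa4 (0.45), Hspa12b (0.43), Hsph1 (-0.66) and Hspa14 (-0.75). Of the DNAJA and DNAJB genes, Dnajb5 (0.53) and Dnajb12 (0.35) had a higher change at 72 h and Dnaja3 (-0.59), Dnajb14 (-0.56) and Dnaja4 (-0.42) a lower one. Of the DNAJC genes, Dnajc21 (0.46), Dnajc7 (0.41) and Dnajc8 (0.28) were on the higher side and Dnajc18 (-0.83), Dnajc16 (-0.75), Dnajc13 (-0.74) and Dnajc28 (-0.49) on the lower. The times come from separate tables with separate V libraries. No group here has enough libraries for a search for single outlying values, and no interaction of doxorubicin and hesperitin was called among the members.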

How the results depend on the processing

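In DOX against V at 16 h, 15 of the 30 member calls passed under every alternative that tested them. At 72 h 9 of 27 did, and for the difference between times 9 of 19. The matching counts over all genes were not made, so these shares are not shown to be particular to the members. Among the 15 was Dnajc12, which had a value in 15 of 16 alternatives at 16 h. No called member changed sign at 16 h or in the difference between times.

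At 72 h, total-count scaling (chosen after seeing the data) raised the median log2 change of all genes by 0.42. It gave the opposite sign to 25 of 48 members, and the matching count over all genes was not made. For 13 called lower it gave Hspd1 0.00862, Hspb6 0.0235, Dnajc13 0.0241, Dnajc15 0.0372, Hspe1 0.0440, Dnajc30 0.0447, Hspb8 0.0596, Dnajc18 0.0655, Dnaja4 0.0771, Hspa4 0.0927, Dnajc21 0.17, Dnajc25 0.18 and Dnaja2 0.20. Dnajb4 (0.28), Hsp90ab1 (0.35) and Hspa8 (0.36), not called before, were called higher. The shift follows from the construction, since TMM centres on the typical gene.

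Leaving out 1 library at a time gave 21 to 25 members at 16 h, 21 to 25 at 72 h and 14 to 19 for the difference between times. The number of all genes called moved as well. It ran from 1928 to 2409 at 16 h, 3397 to 4022 at 72 h and 2204 to 2748 for the difference. The main fits called 3352, 4133 and 2640 genes. It gave 0 to 17 for DOXH against DOX, 0 to 15 for DOXH against H, 0 to 10 for DOXH against V, 0 to 2 for the interaction and 0 to 5 for H against V; the highest counts came without DOXH replicate 2 or 3 or H replicate 1. DESeq2 gave 3 members for DOXH against DOX, 2 against H and 2 against V. A fit of all 18 libraries gave 12 for the difference between times, beside 1960 of all genes called.

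Same-numbered libraries did not deviate together at 16 h (correlations -0.42 to 0.25 over 18 pairs, 4 over 0.1). At 72 h both numbered pairs correlated above 0.1 (0.20 and 0.24) and 0 of 7 other pairs did, but 2 pairs are too few to decide a pairing that no label states. The replicate block gave 28 members at 16 h, 25 at 72 h, 13 for the difference between times and 0 in the other comparisons. All genes called there were 3064 at 16 h, 3818 at 72 h and 1953 for the difference. The other alternatives gave 25 to 40 at 16 h, the highest from only the groups compared, 26 to 28 at 72 h and 18 to 23 for the difference. All genes called in these ran from 3227 to 4571 at 16 h, the highest again from only the groups compared. At 72 h they ran from 3942 to 5602, and for the difference from 2541 to 2928. Library totals of 9255651 counts or more and 3 libraries per group set the precision of genes at a few CPM.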
